A study of Mus musculus with 6 samples.

Results

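Imprinted fetal growth genes were followed in fetal mouse lungs, taken whole on the E16.5 day of gestation, in 3 Hopx-null lungs (genotype Hopx -/-) and 3 wild-type lungs (Hopx +/+). All 6 lungs were microdissected from embryos of a mixed strain background, and the labels call them biological replicates. Hopx is a homeodomain protein that does not bind DNA itself, and in the lung it marks type I alveolar cells. The labels name neither the Hopx allele nor the litters, and the p-values measure the spread between these 6 lungs. Total RNA was measured on single-colour Affymetrix arrays, and a value below is a log2 expression value per probe set, a group of short probes for 1 transcript. The 10 genes chosen were H19, Igf2, Igf2r, Dlk1, Meg3, Peg3, Cdkn1c, Mest, Plagl1 and Grb10, and every probe set annotated to exactly 1 of them was taken. This gave 30 of 45037 probe sets and 9 of the 10 genes, since the probe set that names H19 also names a second gene and H19 was not analysed here. Of 18193 genes with a probe set of their own, each is represented by its brightest probe set, judged on the average of all 6 lungs.

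An imprinted gene is transcribed mainly from the copy inherited from 1 parent, because that copy and its partner carry different DNA methylation at a shared control region. Many imprinted genes act on growth before birth, and their transcripts are abundant in fetal organs, the lung among them, and decline after birth. Among those measured, Igf2, Dlk1, Peg3, Mest and Plagl1 are read from the paternal copy, and Igf2r, Meg3, Cdkn1c and Grb10 from the maternal copy in most tissues.

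None of the 30 probe sets passed the comparison of Hopx-null with wild-type lungs (limma, adjusted p of 0.05 after Benjamini-Hochberg over all probe sets), against 0.00444% of all probe sets, which were the 2 of Hopx itself (0.0055% of genes). The values nevertheless lay mostly on 1 side. At 27 of the 30 probe sets the Hopx-null mean was below the wild-type mean, against 48.6% of all probe sets. By gene it was below in 8 of 9, against 47.8% of all genes, and above in 1, against 52.2%. By gene this one-sidedness was gone with Y-linked signal as a covariate, a fit that in effect compares with wild-type replicate 1 alone. There 5 of the 9 genes had the higher fitted mean in Hopx-null lungs, against 51.8% of all genes. The median difference of the 9 genes was then 0.0047. Probe sets of Meg3, Peg3 and Dlk1 all kept the lower fitted mean. Those of Igf2, Plagl1, Mest and Cdkn1c all had the higher, and those of Igf2r and Grb10 were divided. The median log2 difference (Hopx-null minus wild-type) of the 9 genes was -0.12, against 0.01 for all genes. In 2 genes, Meg3 and Peg3, all 3 Hopx-null lungs lay below all 3 wild-type lungs, against 4.31% of all genes, and in none did they all lie above (6.21% of all genes). Counted by probe set, 10 of 30 had no overlap with Hopx-null below, against 4.54% of all probe sets, but 7 of these belong to Meg3 and 3 to Peg3, and 0 of 30 had Hopx-null above (5.6%). Probe sets of a gene read the same transcripts in the same lungs and are not separate evidence. At an unadjusted p under 0.05 there were 9 member probe sets, all with the lower mean in Hopx-null lungs, against 4.77% of all probe sets in either direction and 2% in that direction. With a lung left out, groups of 2 and 3 separate more easily. The count without overlap was then 10, 11 and 15 without Hopx-null replicates 1, 2 and 3, where 12.1%, 9.26% and 8.08% of all probe sets had none. It was 15, 14 and 10 without wild-type replicates 1, 2 and 3, against 9.45%, 11.2% and 8.05%. Those 30 probe sets include 6 dimmer than the array median.

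**Figure D1:**
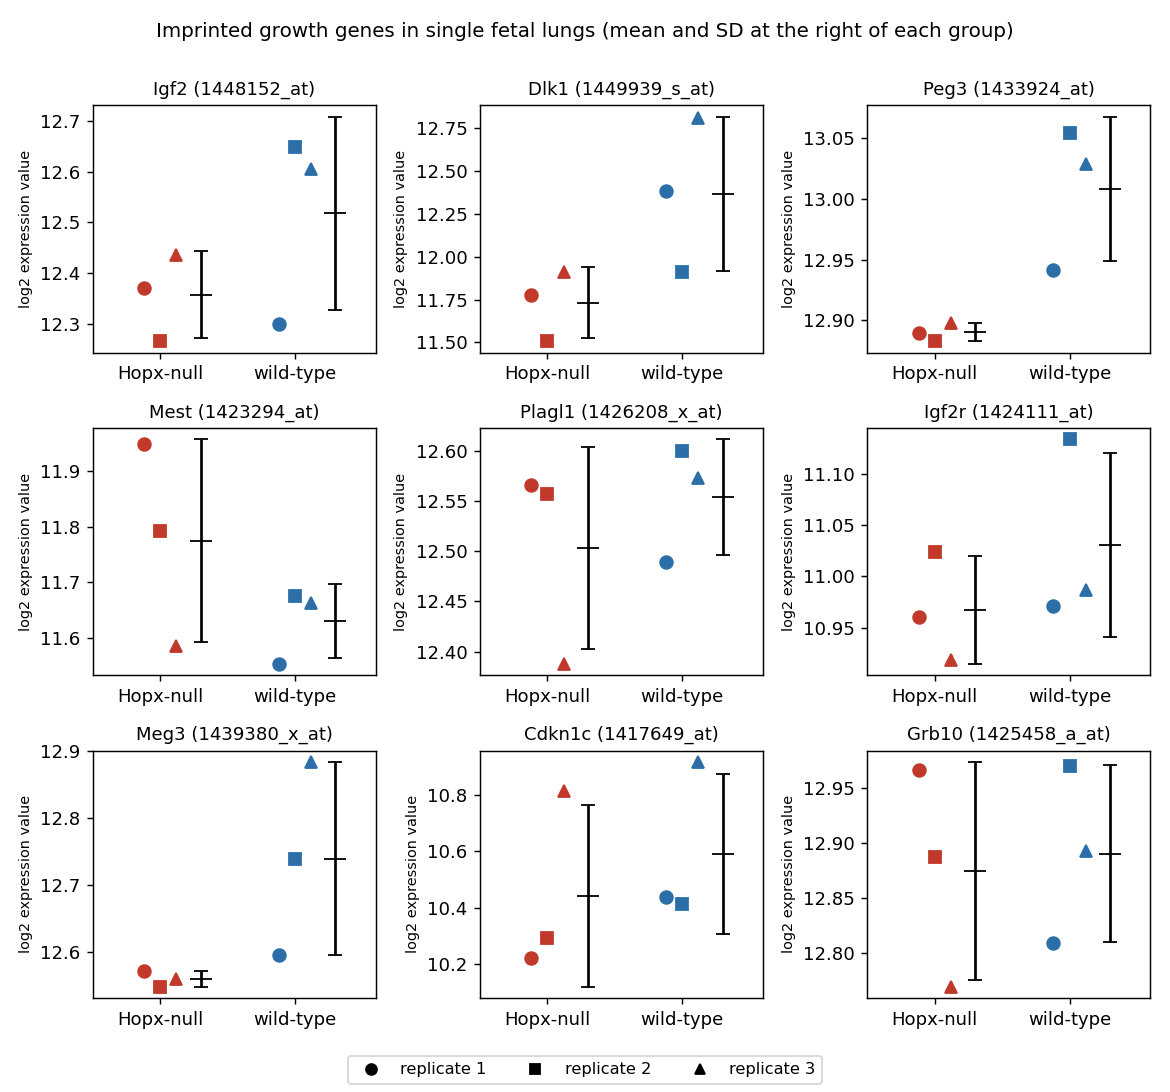
Log2 expression values of the 9 imprinted growth genes at their brightest probe set, with each point a lung, the marker shape its replicate number, and the bar at the right of each group the mean and SD (n = 3 each). The vertical axes differ and do not start at 0. The groups do not overlap in Peg3 and Meg3, and they do in the other 7 genes.

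Lung identity and the state of the arrays can be given briefly. The surfactant gene Sftpc read between 13.72 and 13.82 in the 6 lungs, and the lung transcription factor gene Nkx2-1 between 7.38 and 7.82. Of 7 lung epithelial markers, 4 had the lower and 3 the higher mean in Hopx-null lungs, with every Hopx-null lung below in Nkx2-1 and every Hopx-null lung above in Sftpb. Hopx, the gene the genotype labels name, had log2 differences of -5.94 and -1.91 at its 2 probe sets (limma, adjusted p = 0.000375 and 0.0228). Quartiles of the arrays were 4.24 to 4.29, 6.67 to 6.72 and 9.02 to 9.05. Y-linked transcripts averaged 9.24 and 9.12 in wild-type replicates 2 and 3 and 2.47 to 2.57 in the other 4 lungs, so that sex and genotype are partly mixed. A fit with Y-linked signal as a covariate in effect sets the Hopx-null lungs against wild-type replicate 1 alone. Hopx-null replicate 3 had the largest difference between 3' and 5' control probe sets (1.51 for actin, against 1.15 to 1.25 in the other lungs). In whole lungs, fewer cells of a type and less RNA per cell cannot be told apart.

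Meg3, a long noncoding RNA read from the maternal copy, shares an imprinted domain on chromosome 12 with the paternally expressed Dlk1. All 11 Meg3 probe sets had the lower mean in Hopx-null lungs, with log2 differences from -0.66 to -0.16. At the brightest, 1439380_x_at, Meg3 read 12.57, 12.55 and 12.56 in Hopx-null replicates 1 to 3, against 12.60, 12.74 and 12.88 in wild-type replicates 1 to 3. The 3 Hopx-null values lay within 0.02 of each other, and wild-type replicate 1 stood just above them. The means were 12.56 ± 0.01 and 12.74 ± 0.14 (SD, n = 3 each), a log2 difference of -0.18 (SE 0.10, limma, adjusted p = 0.878). The suffix x_at marks probes that may also match other sequences.

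The largest Meg3 difference was at 1436713_s_at, with 9.87, 9.75 and 9.64 in Hopx-null lungs, against 10.38, 10.20 and 10.68 in wild-type lungs. The nearest lungs of the genotypes stood at 9.87 and 10.20. The log2 difference was -0.66 (SE 0.14), 0.631 times the wild-type level, with an adjusted p of 0.878 in limma. At this probe set the difference was -0.53 without wild-type replicate 3 and -0.63 with Y-linked signal as a covariate. At 1439380_x_at the same settings gave -0.11 and -0.04, so the size at the brightest probe set came largely from wild-type replicates 2 and 3.

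All 11 Meg3 probe sets were highest in wild-type replicate 3, the lung that was highest at 19.7% of all probe sets. Over the 55 pairs of Meg3 probe sets, Pearson correlations over the 6 lungs ran from 0.62 to 0.99 with a median of 0.86, given as a description, since all probe sets share the same 6 RNA samples. Of the 4 Meg3 probe sets whose groups overlapped, 2 had means below the array median.

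**Figure D2:**
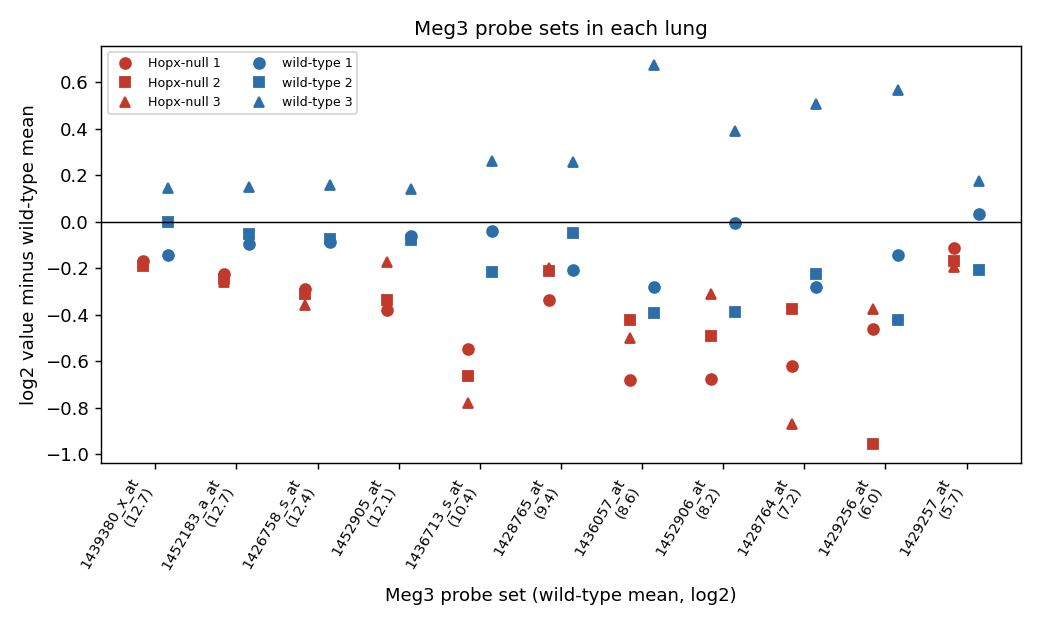
Values of the 11 Meg3 probe sets in each lung as log2 value minus the wild-type mean of that probe set, ordered by wild-type mean (given under each name). Red points are Hopx-null lungs and blue points wild-type lungs, and wild-type replicate 3 (blue triangle) is the highest point at every probe set.

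Peg3, a paternally expressed zinc finger gene that acts on growth and maternal behaviour in mice, had 5 probe sets. The 3 with signal above the upper quartile of the arrays all separated the groups. At 1433924_at, the brightest, Peg3 read 12.89, 12.88 and 12.90 in Hopx-null lungs, against 12.94, 13.05 and 13.03 in wild-type lungs. The difference was small, -0.12 (SE 0.08, limma, adjusted p = 0.878), though the Hopx-null lungs spanned only 0.015.

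Larger differences stood at the 2 dimmer of these 3 probe sets. At 1417356_at Peg3 read 10.33, 10.30 and 10.25 in Hopx-null lungs, against 10.58, 10.72 and 10.72 in wild-type lungs. The log2 difference was -0.38 (95% interval -0.59 to -0.18, limma, adjusted p = 0.878), 0.768 times the wild-type level. At 1417355_at it read 8.88, 8.89 and 8.99, against 9.17, 9.41 and 9.34, again a difference of -0.38. With Y-linked signal as a covariate the 3 differences were -0.05, -0.29 and -0.25. The remaining Peg3 probe sets, 1447731_at and 1447732_x_at, read between 2.07 and 2.35 in every lung, below the lower quartile, and carry no information on genotype. Usp29, which lies head to head with Peg3 and is also paternally expressed, read 7.55, 8.04 and 7.81 in Hopx-null lungs, against 7.53, 7.76 and 8.23 in wild-type lungs. The groups overlapped.

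RefSeq promoter windows (GRCm38.p6, 250 bases before to 50 after a listed start) were found for 8 of the 9 genes, 15 windows in all. A window of Meg3 and that of Peg3 are shown because these genes alone separated the lungs, and that of Dlk1 because it shares the Meg3 domain. Meg3 has a second window, chr12:109545148-109545447, which held no match to the motifs searched and is not printed. In capitals are matches on either strand to 4 motifs, searched by their letters: the cyclic AMP response element TGACGTCA, the TATA box TATAAA, the GC box GGGCGG and a YY1 core AAGATGG. The Meg3 window shown is chr12:109540746-109541045 on the plus strand, the Peg3 window chr7:6730370-6730669 on the minus strand and the Dlk1 window chr12:109452573-109452872 on the plus strand, and each is written 5' to 3'.
Meg3: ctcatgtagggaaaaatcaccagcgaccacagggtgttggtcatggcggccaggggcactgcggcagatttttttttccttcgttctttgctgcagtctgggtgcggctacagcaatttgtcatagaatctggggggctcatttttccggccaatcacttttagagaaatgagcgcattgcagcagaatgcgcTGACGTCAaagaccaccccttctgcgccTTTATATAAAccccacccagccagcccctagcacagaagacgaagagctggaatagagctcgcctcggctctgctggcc
Peg3: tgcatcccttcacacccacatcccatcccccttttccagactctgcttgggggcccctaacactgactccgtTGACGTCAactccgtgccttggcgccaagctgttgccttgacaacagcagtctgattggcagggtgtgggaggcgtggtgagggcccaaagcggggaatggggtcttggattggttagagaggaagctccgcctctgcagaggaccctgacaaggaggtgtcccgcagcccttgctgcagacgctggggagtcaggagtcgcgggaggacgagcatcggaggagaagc
Dlk1: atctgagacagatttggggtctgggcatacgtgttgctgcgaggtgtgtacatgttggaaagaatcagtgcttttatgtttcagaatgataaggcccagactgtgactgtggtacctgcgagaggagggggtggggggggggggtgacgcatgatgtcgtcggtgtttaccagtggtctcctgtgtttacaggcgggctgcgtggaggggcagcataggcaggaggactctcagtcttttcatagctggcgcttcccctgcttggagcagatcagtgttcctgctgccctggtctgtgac
The response element occurs once in the Meg3 window, with its first base at position -57, and once in the Peg3 window, at -178. Of 32851 windows of this length, 1.79% hold it, and none of the other 13 windows of these genes does. The Meg3 window also has TATAAA on both strands, overlapping, at -29 and -25 (13.6% of windows hold this motif). The Dlk1 window held no match. The GC box, present in 35.7% of windows, was in 8 of the 15, and the YY1 core, in 6.34%, was in none. These are matches of letters and show neither binding nor a cause.

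Dlk1 encodes a transmembrane protein with epidermal growth factor repeats that keeps progenitor cells undifferentiated. It had the largest difference of the 9 genes at the brightest probe set. At 1449939_s_at Dlk1 read 11.78, 11.51 and 11.91 in Hopx-null lungs, against 12.38, 11.91 and 12.81 in wild-type lungs. Hopx-null replicate 3 and wild-type replicate 2 met at 11.91, so the groups touched. The log2 difference was -0.64 (95% interval -1.19 to -0.08, limma, adjusted p = 0.878), 0.643 times the wild-type level, and -0.41 without wild-type replicate 3. At 1442724_at Dlk1 read 8.72, 8.22 and 8.56 in Hopx-null lungs, against 8.54, 8.43 and 10.26 in wild-type lungs. There wild-type replicate 3 alone stood above the rest.

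Other transcripts of the same domain had wild-type replicate 3 on top as well. Rian, a maternally expressed long noncoding RNA beyond Meg3, read 11.99, 12.07 and 11.87 in Hopx-null lungs, against 12.04, 12.02 and 12.58 in wild-type lungs. Mirg, a maternally expressed microRNA host transcript, read 7.83, 7.43 and 7.92, against 7.68, 8.02 and 9.23. At these probe sets the other 5 lungs overlapped and wild-type replicate 3 was apart. At another Rian probe set all Hopx-null lungs lay below, with 9.05, 9.17 and 9.26 in Hopx-null lungs, against 9.51, 9.30 and 10.46 in wild-type lungs. All 4 Rian and both Mirg probe sets had the lower mean in Hopx-null lungs and their highest value in wild-type replicate 3, and 0 of these 6 passed limma.

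Marker lists are given beside these values, since 1 lung led the whole domain. The 7 cell cycle genes averaged 9.07, 9.02 and 9.14 in Hopx-null lungs and 8.80, 8.94 and 9.34 in wild-type lungs. That list was divided. Mki67, Top2a, Ccnb2 and Cdk1 were highest in wild-type replicate 3, with Mki67 at 9.64 there and at most 8.92 in any other lung. In the replication genes Mcm2 and Mcm5 every Hopx-null lung lay above every wild-type lung, though in Mcm5 the nearest lungs both read 9.12, and Mcm2 was lowest in wild-type replicate 3 (8.21). The 3 neural markers measured, of 6 listed, averaged 5.95, 5.36 and 6.30 in Hopx-null lungs and 5.58, 6.77 and 7.06 in wild-type lungs. Among them Ret read 7.14, 7.29 and 7.43 in Hopx-null lungs, against 7.74, 7.44 and 8.44 in wild-type lungs, with no overlap and wild-type replicate 3 on top. Sox10 read 6.34, 5.03 and 6.28, against 5.03, 7.37 and 7.20, with overlap and wild-type replicate 2 on top. The mean of 8 cartilage markers was also highest in wild-type replicate 3, at 8.33. Within that list Sox9 was highest in Hopx-null replicate 1 (7.90) and Hapln1 in Hopx-null replicate 2 (10.75). The 11 skeletal muscle markers averaged 5.17, 4.99 and 5.08 in Hopx-null lungs and 4.91, 5.13 and 4.93 in wild-type lungs. Of these, Ckm was highest in wild-type replicate 3 (7.21), Myog and Myh8 had every Hopx-null lung above, and Myog, Pax7 and Myh8 averaged less than the arrays' lower quartile. The 5 liver markers averaged 5.19 to 5.47 in Hopx-null lungs and 5.19 to 5.47 in wild-type lungs. The part of any of these cell types or of cell cycle activity in the values of the domain was not tested.

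**Figure D3:**
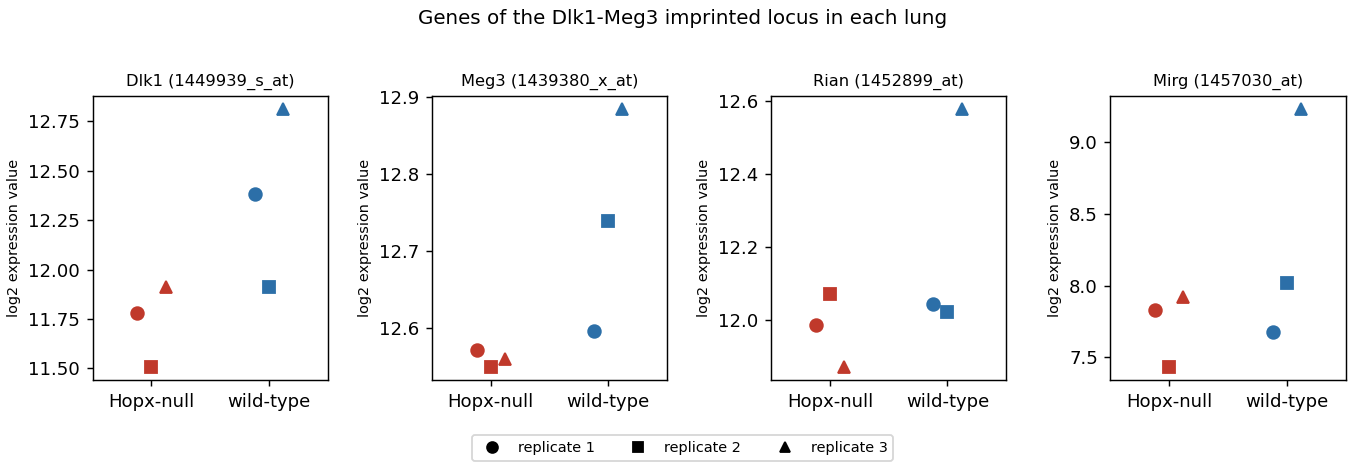
Log2 values of 4 genes of the Dlk1-Meg3 imprinted domain in each lung, at the brightest probe set of each gene. Wild-type replicate 3 (triangle) is the highest lung in all 4 panels, at 12.81 in Dlk1, 12.88 in Meg3, 12.58 in Rian and 9.23 in Mirg, and the vertical axes differ.

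Igf2 encodes insulin-like growth factor 2, the main growth factor of the fetus, and Igf2r a receptor that carries it to the lysosome for breakdown. At 1448152_at Igf2 read 12.37, 12.27 and 12.44 in Hopx-null lungs, against 12.30, 12.65 and 12.61 in wild-type lungs. The high lungs were wild-type replicates 2 and 3, and wild-type replicate 1 lay among the Hopx-null lungs. The log2 difference was -0.16 (95% interval -0.45 to 0.13, limma, adjusted p = 0.879), and it was 0.06 with Y-linked signal as a covariate. Leaving out wild-type replicate 1 gave -0.27, and leaving out wild-type replicate 2 gave -0.09. A dim second probe set, 1415931_at, had the same 2 lungs on top, with 5.48, 5.52 and 5.46 in Hopx-null lungs, against 5.20, 5.90 and 6.05 in wild-type lungs. Igf2r read 10.96, 11.02 and 10.92 in Hopx-null lungs, against 10.97, 11.13 and 10.99 in wild-type lungs, a difference of -0.06 (95% interval -0.27 to 0.15, limma, adjusted p = 0.921).

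The genes whose pattern over the 6 lungs was most like that of Igf2 were Muc5b, Acan, Bpifb1, Oit1 and Reg3g, with Pearson r from 0.98 to 0.99. They were the top of 11437 genes above the median signal, of which 28 (0.245%) had r over 0.95. Muc5b, an airway mucin gene, read 7.41, 6.08 and 8.81 in Hopx-null lungs, against 6.01, 11.26 and 10.72 in wild-type lungs. Acan, which encodes a cartilage proteoglycan, read 6.44, 5.44 and 6.84, against 6.07, 8.77 and 9.02. Both genes put the lungs in nearly the same order as Igf2, over a far wider range. The whole list of 8 cartilage markers averaged 6.72, 5.97 and 6.96 in Hopx-null lungs and 5.93, 8.08 and 8.33 in wild-type lungs. In 6 of the 8 the mean was lower in Hopx-null lungs, and in 2, Sox9 and Hapln1, it was higher. Comp, at signal below the array median, was the only 1 of the 8 without overlap between genotypes. The part of cartilage or large airway content in the Igf2 values was not tested, and neither was that of sex, which follows the same lungs.

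**Figure D4:**
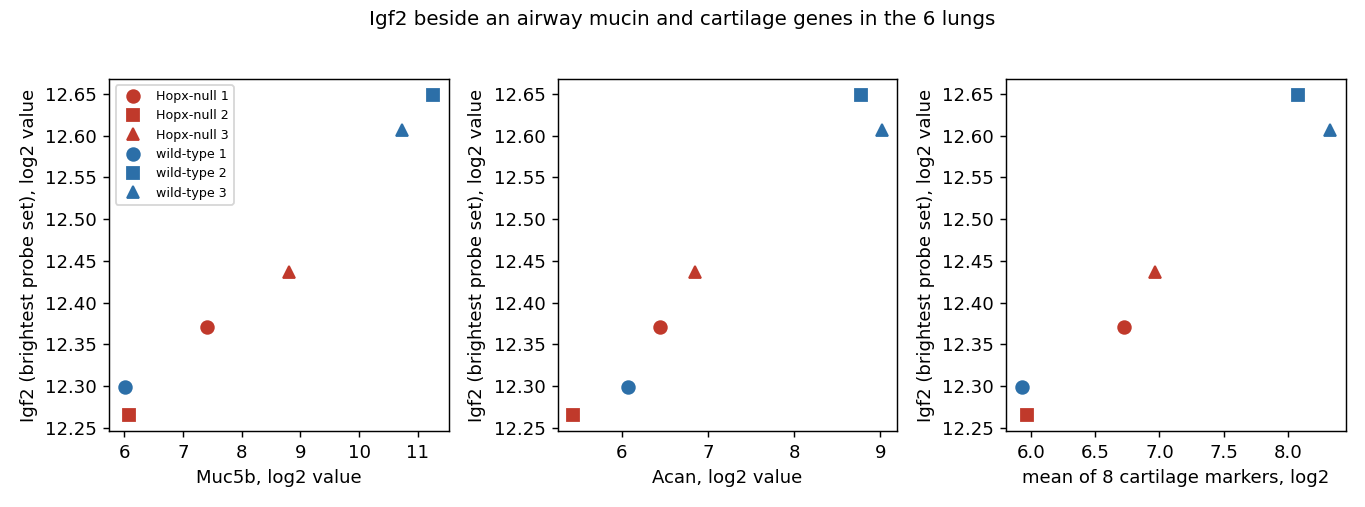
Igf2 (vertical axis, log2 value) in each lung against the airway mucin Muc5b, the cartilage gene Acan and the mean of 8 cartilage markers (horizontal axes, log2 values). Wild-type replicates 2 and 3 (blue square and triangle) lie at the upper right of each panel, and wild-type replicate 1 (blue circle) lies at the lower left with Hopx-null replicate 2. Muc5b and Acan were picked for their likeness to Igf2.

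Mest, a paternally expressed gene of a hydrolase-like protein abundant in fetal mesenchyme, was the only one of the 9 with the higher mean in Hopx-null lungs. It read 11.95, 11.79 and 11.59 in Hopx-null lungs, against 11.55, 11.68 and 11.66 in wild-type lungs. Hopx-null replicates 1 and 2 lay above all wild-type lungs and Hopx-null replicate 3 among them, and the difference was 0.14 (95% interval -0.13 to 0.42, limma, adjusted p = 0.879). Without Hopx-null replicate 1 it was 0.06. Copg2, which overlaps the end of Mest, read 8.89, 8.82 and 8.78 in Hopx-null lungs, against 8.78, 8.68 and 8.70 in wild-type lungs. All Hopx-null lungs lay above, with the nearest lungs of both groups at 8.78, and the difference was 0.11 (SE 0.08).

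Plagl1, a paternally expressed zinc finger factor known in mice to regulate other imprinted genes, read 12.57, 12.56 and 12.39 in Hopx-null lungs, against 12.49, 12.60 and 12.57 in wild-type lungs. At this probe set, 1426208_x_at, only Hopx-null replicate 3 stood apart, below the others. The difference there was -0.05 (95% interval -0.27 to 0.17, limma, adjusted p = 0.939), and the other 2 Plagl1 probe sets gave -0.08 and -0.07. At 1438588_at Hopx-null replicate 3 read 9.96, and wild-type replicate 1 (9.70) and Hopx-null replicate 2 (9.71) were lowest. At 1450533_a_at Hopx-null replicate 3 and wild-type replicate 1 read 8.33 and 8.34. The 7 lung mesenchyme markers averaged 12.19, 12.06 and 12.01 in Hopx-null lungs and 12.17, 12.17 and 12.14 in wild-type lungs. Hopx-null replicate 3 was lowest there, and Hopx-null replicate 2, next at 12.06, read 12.56 in Plagl1 at 1426208_x_at. The part of mesenchyme in the Plagl1 values was not tested.

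Cdkn1c encodes a cyclin-dependent kinase inhibitor that restrains fetal growth. It read 10.22, 10.29 and 10.81 in Hopx-null lungs, against 10.44, 10.41 and 10.92 in wild-type lungs. Replicate 3 was the highest lung of each genotype, and the spread within a genotype (SD 0.32 in Hopx-null and 0.28 in wild-type lungs) exceeded the difference of -0.15 (95% interval -0.64 to 0.34, limma, adjusted p = 0.921). Its neighbour Kcnq1ot1, the noncoding RNA that silences this domain on the paternal copy, read 9.77, 9.50 and 9.52 in Hopx-null lungs, against 9.57, 9.84 and 9.75 in wild-type lungs. Further maternally expressed genes of that domain, Phlda2 and Ascl2, differed by 0.07 each at signals below the array median, and the groups overlapped in all 3.

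Grb10, an adaptor protein that dampens insulin and Igf receptor signalling, gave probe sets that disagreed. At 1425458_a_at it read 12.97, 12.89 and 12.77 in Hopx-null lungs, against 12.81, 12.97 and 12.89 in wild-type lungs, a difference of -0.02 (95% interval -0.24 to 0.21, limma, adjusted p = 0.983). The dimmer 1430164_a_at and 1425457_a_at differed by 0.16 and 0.08. Correlations between the 3 probe sets over the 6 lungs ran from -0.84 to 0.40, so they do not read 1 common pattern. Ddc, the neighbour of Grb10, read 8.61, 8.15 and 8.23 in Hopx-null lungs, against 8.18, 7.94 and 7.17 in wild-type lungs, with the lowest value in wild-type replicate 3. Beside Igf2r, Airn, the antisense RNA of that domain, differed by -0.01 and the transporter gene Slc22a2 by -0.29, and beside Peg3, Zim1 differed by -0.09. Slc22a2 and Zim1 had signal below the array median, and the groups overlapped in each of these neighbours.

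**Figure D5:**
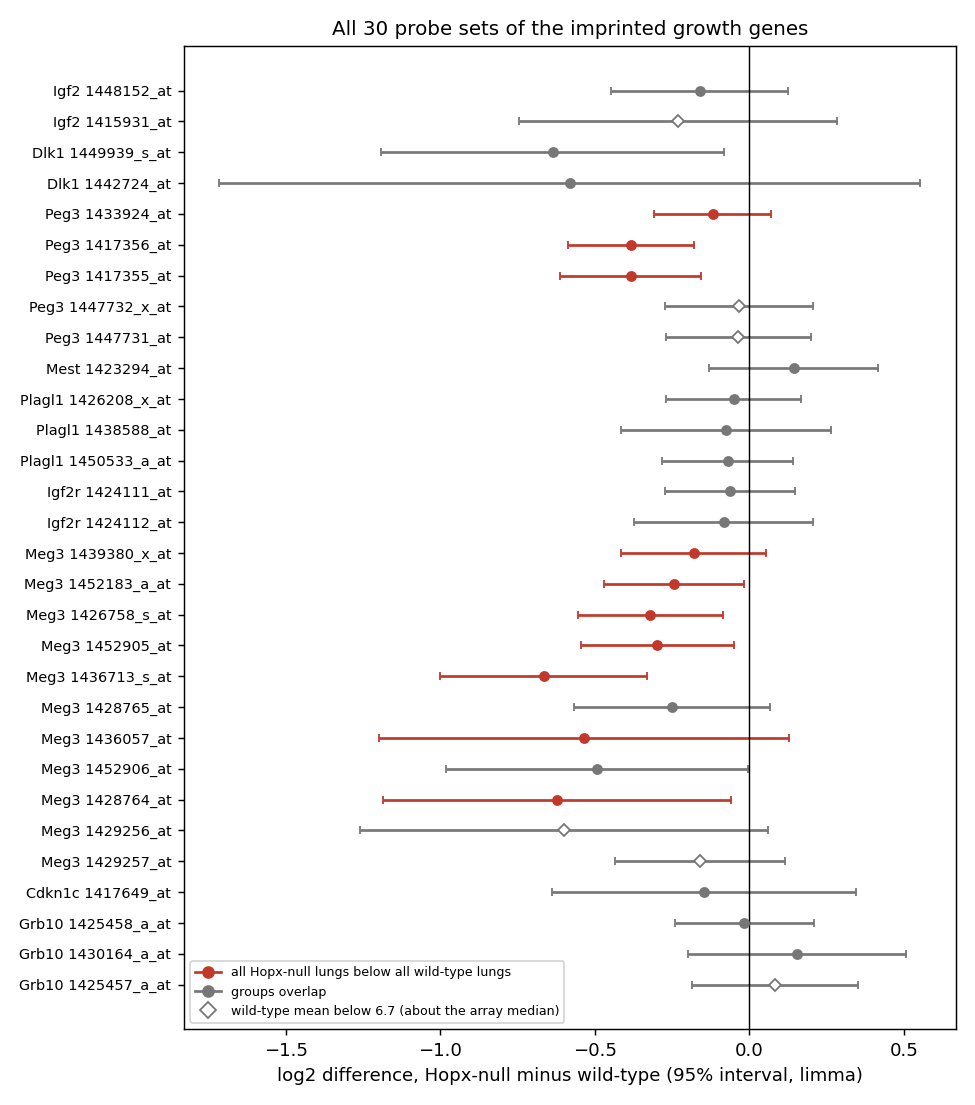
Log2 differences (Hopx-null minus wild-type) of all 30 probe sets with 95% intervals from limma, grouped by gene. Red marks the 10 probe sets, 7 of Meg3 and 3 of Peg3, where every Hopx-null lung lay below every wild-type lung, and open diamonds mark dim probe sets. Intervals are for single probe sets without adjustment, and no probe set passed after adjustment.

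Co-variation over single lungs was examined for 6 pairs, and 2 further pairs with H19 were not analysed here. Dlk1 and Meg3 had the highest correlation (Pearson r = 0.75, exact two-sided permutation p = 0.0556, adjusted over the 6 pairs 0.333). Spearman's rho was 0.71 (exact permutation p = 0.136, adjusted 0.725). Without the 2 lungs farthest from the Dlk1 median r was 0.52, of the deviations from each genotype's mean 0.45, and without wild-type replicate 3 it was 0.23. The relation thus rests in part on that lung.

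The other pairs gave r = 0.48 for Igf2 with Igf2r, 0.33 for Plagl1 with Igf2, -0.41 for Plagl1 with Cdkn1c, 0.02 for Plagl1 with Dlk1 and -0.36 for Mest with Peg3. Their Spearman coefficients were 0.20, 0.60, -0.14, -0.03 and -0.43. Exact permutation p-values of these r ran from 0.351 to 0.981 (adjusted 0.66 to 0.981), and those of rho from 0.242 to 1 (adjusted 0.725 to 1). Without the 2 lungs farthest from the median of the first gene, the 5 coefficients were -0.94, 0.86, 0.18, 0.22 and 0.89, so 3 of them changed sign. No common ordering of the lungs held for the 9 genes. Wild-type replicate 2 was the highest lung in 5 of them, wild-type replicate 3 in 3 and Hopx-null replicate 1 in 1. These lungs were highest at 13.4%, 19.7% and 14.9% of all probe sets. The lowest lung was a Hopx-null lung in 8, the same genes that had the lower mean in Hopx-null lungs. The share of all genes was not computed for this.

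Other imprinted genes were read as a list of 53, of which 45 had a probe set of their own. None passed limma over all probe sets. Of these 45, 26 had the lower and 19 the higher mean in Hopx-null lungs, with a median difference of -0.02, against 47.8% lower and a median of 0.01 for all genes. The lower mean was found in 12 of 19 genes listed as paternally expressed and in 14 of 26 listed as maternally expressed. Expression by parental copy was not measured in these lungs. The lowest differences were -0.58 in Mirg, -0.55 in Rasgrf1 and -0.39 in Zdbf2, and the highest 0.57 in Ddc, 0.42 in Kcnq1 and 0.32 in Nnat. Kcnq1, a potassium channel gene of the Cdkn1c domain, read 8.25, 8.28 and 8.52 in Hopx-null lungs, against 8.02, 7.99 and 7.79 in wild-type lungs. Kcnq1 and Copg2 had all Hopx-null lungs above (6.21% of all genes), and Zdbf2 had them all below (4.31%).

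Signalling partners of Igf2 were 18 measured genes of 20 listed, and none passed. The lower mean was in Hopx-null lungs in 10 of 18, with a median difference of -0.02. Igf1r, a receptor through which Igf2 signals, read 11.31, 11.36 and 11.21 in Hopx-null lungs, against 11.28, 11.38 and 11.35 in wild-type lungs. Insr alone of the 18 had every Hopx-null lung below (4.31% of all genes), and 0 had every one above (6.21%). Insr read 10.56, 10.38 and 10.55 in Hopx-null lungs, against 10.59, 10.58 and 10.60 in wild-type lungs. The largest differences were -0.78 in the binding protein gene Igfbp3, -0.49 in Pappa, a protease that cleaves Igf binding proteins, and 0.45 in the protease gene Htra1. Igfbp3 read 8.67, 8.73 and 9.54 in Hopx-null lungs, against 9.86, 9.15 and 10.26 in wild-type lungs, and Hopx-null replicate 3 lay above wild-type replicate 2. Pappa, with a mean signal below the array median, read 6.40, 5.94 and 6.65, against 6.40, 6.45 and 7.61. Its groups overlapped and wild-type replicate 3 alone stood above the rest.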

How the data were processed

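Total RNA of 6 lungs, 1 array each, was extracted with Trizol and copied from a poly(T) primer into biotinylated cRNA, per the labels' protocols, so probe sets near the 3' end are favoured. The deposited table holds 1 log2 value per probe set and array. RMA and Partek 6.6 are named with no role or order, per the submitters' processing notes, and the base of the logarithm is an inference from how far the values extend. RMA equalises the arrays' distributions, so a general rise or fall of transcripts is hidden. Of 45101 rows, 64 control probe sets were left out. By GEO's annotation of the platform, 34945 probe sets have 1 gene, 932 have several and 9160 have none, and no gene was named from several. All 9 symbols matched a RefSeq table (GRCm38.p6) by gene identifier.

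Genotypes were compared by limma's lmFit and eBayes (limma 3.58.1, R 4.3.3) over all 45037 probe sets, with Benjamini-Hochberg adjustment. The procedure was tested on simulated data with planted differences larger than any found for these genes. That test therefore cannot show whether differences of the size seen here would be detected. Correlations over lungs used exact permutation. The 6 arrays limit the precision, and 3 against 3 lungs cannot give an exact two-sided permutation p below 0.1. All 10 genes were to be named with every probe set, the neighbours and pairs as listed, and otherwise the 3 largest differences of a list in each direction (for Igf2 partners, the 3 largest). The genes, lists and tests were chosen with earlier results of these data known. The alternatives were repeated normalization, bright probe sets alone, trended and robust eBayes, weighted arrays, a block for the replicate number, Y-linked signal as a covariate, the mean of a gene's probe sets and each lung left out. The counts without overlap under other settings, and the motifs, were added after seeing the data. Of 4 Y-linked genes listed, Ddx3y was not used.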

Additional observations from a re-analysis of the deposited data

How the results depend on the processing

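In none of the settings run did a member probe set pass after adjustment in limma, and 9 did at an unadjusted p under 0.05. The number of genes with the higher mean in Hopx-null lungs, 1 of 9 as reported, was 2 with the mean of all probe sets of a gene and 5 with Y-linked signal as a covariate, and it ranged from 1 to 3 with each lung left out. The median difference of the 9 genes was 0.0047 with that covariate, and from -0.15 to -0.08 with each lung left out. With the covariate the differences were 0.062 for Igf2, 0.014 for Plagl1, 0.0047 for Cdkn1c and 0.067 for Grb10, all of the opposite sign to those reported, and Grb10 was at 0.074 with the mean of its probe sets. With each lung left out, the difference ranged from -0.083 to 0.0076 for Plagl1, from -0.33 to 0.017 for Cdkn1c and from -0.062 to 0.037 for Grb10, and the other 6 genes kept their sign. The covariate leaves wild-type replicate 1 as the only wild-type lung without Y-linked signal. With the covariate Meg3 stood at -0.04, Peg3 at -0.05 and Dlk1 at -0.66. The count of probe sets without overlap was 10 of 30 after repeated normalization (4.81% of all probe sets) and 10 of the 24 above the median (4.46%). With each lung left out, the difference ranged from -0.27 to -0.09 for Igf2, -0.86 to -0.41 for Dlk1, -0.15 to -0.10 for Peg3, 0.06 to 0.24 for Mest, -0.09 to -0.01 for Igf2r and -0.25 to -0.11 for Meg3.

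The pairs of genes were less stable. Without the 2 farthest lungs r was -0.94 for Igf2 with Igf2r, 0.18 for Plagl1 with Cdkn1c and 0.89 for Mest with Peg3, each of the opposite sign to the value reported. Of deviations from the genotype means, r was -0.38 for Plagl1 with Dlk1 and 0.26 for Mest with Peg3. With each lung left out, r ranged from 0.23 to 0.89 for Dlk1 with Meg3, from -0.27 to 0.68 for Igf2 with Igf2r, from 0.07 to 0.70 for Plagl1 with Igf2, from -0.87 to 0.10 for Plagl1 with Cdkn1c, from -0.34 to 0.15 for Plagl1 with Dlk1 and from -0.56 to -0.06 for Mest with Peg3. The cause was not tested.

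Deviations of same-numbered lungs from their genotype means correlated at -0.10, -0.12 and 0.18. Of the 6 lungs 2, replicate 3 of each genotype, correlated best with their own number. With 3 lungs per genotype these values cannot show whether the replicate numbers pair the lungs. With the replicate number as a block 0 member probe sets passed and the median difference was -0.12. Over all probe sets 2 passed as reported and 1 with the block. With a lung dropped, 12 passed without Hopx-null replicate 1, 23 without wild-type replicate 1, and 1 in each other case. The fit of gene means had 1 row per gene, not per probe set, and 1 gene passed there. Of all that passed, 0 were of these genes. Signal near the bottom of the arrays limits 2 of the 5 Peg3 probe sets.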

Other observations

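Genes that set or keep imprints were read as a list of 12, with 11 measured, and none passed limma over all probe sets. Dppa3, with the higher mean in Hopx-null lungs, and Dnmt3l, with the lower, had signal below the array median. Of these 11, 8 had the higher mean in Hopx-null lungs, against 52.2% of all genes, and the median difference was 0.04. Zfp57, a zinc finger factor that protects methylated imprints, read 10.43, 10.60 and 10.60 in Hopx-null lungs, against 10.40, 10.37 and 10.12 in wild-type lungs. All Hopx-null lungs lay above, and the difference was 0.25 (SE 0.11, limma, adjusted p = 0.878). Uhrf1, which brings the maintenance methyltransferase to replicating DNA, differed by 0.35 and Dnmt1, that methyltransferase, by 0.13, with overlap between groups in both. Ctcf, the insulator protein that separates Igf2 from its enhancers on the maternal copy, read 11.09, 10.99 and 10.89 in Hopx-null lungs, against 10.94, 11.01 and 10.97 in wild-type lungs, with a difference of 0.02 (95% interval -0.19 to 0.23).

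Values spread less among Hopx-null than among wild-type lungs in 5 of the 9 genes, against 53.3% of all genes. At the brightest probe sets of Meg3 and Peg3 the range over the Hopx-null lungs was 0.02 and 0.015, and over the wild-type lungs 0.29 and 0.11. At the Meg3 probe set 1452905_at the SD was 0.11 in Hopx-null and 0.12 in wild-type lungs. In Mest the range was wider in Hopx-null lungs, 0.36 against 0.12.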
